A study of Mus musculus with 12 samples.

Results

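Kap, Slco1a1, Gusb, Odc1, Acsm3 and Timd2 are 6 genes of the mouse kidney grouped as androgen-responsive genes of the proximal tubule. They were found by their symbols in the deposited table, where they are 6 of 33188 genes, and all 6 had enough counts to be among the 19772 genes tested. The proximal tubule of the mouse kidney responds strongly to androgens: testosterone and dihydrotestosterone enter its cells and change the transcription of target genes. Kap, Gusb and Odc1 are classic examples of kidney genes whose RNA rises in mice given testosterone, and Slco1a1 is known for higher expression in male than in female kidney. This responsiveness is background knowledge: no label of these samples gives a sex, an androgen level or an androgen treatment.

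RNA was measured in the kidneys of wild-type mice in 12 strand-specific libraries, 4 in each of 3 groups. XZSW mice had hyperuricemia induced by potassium oxonate together with hypoxanthine and were also given Xin-Zi-Sheng-Wan decoction, a traditional Chinese medicine. HUA mice had the same induction without the decoction, and CTL mice were the controls. Potassium oxonate blocks uricase, the enzyme that clears uric acid in mice, and hypoxanthine is a purine from which uric acid is made. The labels give no age, strain, dose or duration, and do not state whether the 4 samples of a group came from different mice. The p-values therefore describe the spread among the samples as deposited, and that spread may be technical. Libraries are named by group and replicate number, so that HUA2 is replicate 2 of HUA.

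Library totals were 51.6 to 74.3 M counts, and the kidney markers were present in every library: 20 proximal tubule markers summed to 1268 FPKM or more, and 10 of other nephron segments and vessels to 625 FPKM or more. Y-linked Ddx3y was at 5.23 to 9.27 FPKM in XZSW, 4.16 to 12.6 FPKM in HUA and 8.32 to 9.24 FPKM in CTL, while Xist was at most 0.504 FPKM in any library. In XZSW3, XZSW4, HUA2, HUA3 and HUA4, levels relative to CTL climbed with the GC content of the transcript, by 0.189 to 0.326 log2 units per 10% GC, against -0.0965 to 0.049 in the other 7 libraries, all 4 CTL ones among them. This kind of library is not labelled, crosses XZSW and HUA and is carried below as a further term where it matters. Because levels were taken relative to the CTL mean, the slopes of the CTL libraries cancel out by construction. The kind was read from the same expression values, so the term can also take up changes that belong to the groups. Whether it did was not tested. Of the members, Slco1a1, Acsm3, Timd2 and Kap have transcripts of 38.5%, 41.7%, 42.3% and 42.9% GC and Gusb and Odc1 of 52.2% and 52.4%, beside a median of 49.4% over tested genes. The kind does not cover transcript length. Per doubling of length, HUA1 and XZSW1 had slopes of 0.171 and 0.113 log2 units, against -0.0184 to 0.0188 in CTL. The other HUA and XZSW libraries had -0.048 to 0.0714. Kap has a transcript of 707 bases, beside a median of 2854. The part of length in the results was not tested.

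The 250 bases upstream of the RefSeq start (GRCm38.p6) are shown for 5 of the genes: Kap and Slco1a1, the closest pair in pattern over the 12 libraries, Acsm3, the member with the lowest fitted change in HUA, Odc1, whose window stands apart in base composition, and Timd2, the member that moved the other way. Kap is read from chr6:133853668-133853917 on the minus strand, Slco1a1 from chr6:141946963-141947212 on the minus strand, Acsm3 from chr7:119760673-119760922 on the plus strand, Odc1 from chr12:17544623-17544872 on the plus strand and Timd2 from chr11:46707105-46707354 on the minus strand. Each runs 5′ to 3′ on the strand of its gene, and capitals mark matches of TATAAA and GGGCGG on either strand.
Kap: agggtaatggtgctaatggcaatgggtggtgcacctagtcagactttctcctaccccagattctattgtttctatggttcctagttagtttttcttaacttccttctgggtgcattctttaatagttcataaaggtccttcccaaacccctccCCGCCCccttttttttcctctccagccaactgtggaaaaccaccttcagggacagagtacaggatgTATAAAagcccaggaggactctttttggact
Slco1a1: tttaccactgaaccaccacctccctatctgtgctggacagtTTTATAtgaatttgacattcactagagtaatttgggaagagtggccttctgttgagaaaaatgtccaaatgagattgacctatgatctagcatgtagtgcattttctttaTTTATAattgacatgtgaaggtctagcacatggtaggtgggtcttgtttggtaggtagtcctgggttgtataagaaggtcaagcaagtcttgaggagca
Acsm3: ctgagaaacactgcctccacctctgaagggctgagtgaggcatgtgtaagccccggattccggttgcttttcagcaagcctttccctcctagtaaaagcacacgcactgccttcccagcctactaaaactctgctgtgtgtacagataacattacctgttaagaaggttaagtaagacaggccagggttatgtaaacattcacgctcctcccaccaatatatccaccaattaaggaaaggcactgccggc
Odc1: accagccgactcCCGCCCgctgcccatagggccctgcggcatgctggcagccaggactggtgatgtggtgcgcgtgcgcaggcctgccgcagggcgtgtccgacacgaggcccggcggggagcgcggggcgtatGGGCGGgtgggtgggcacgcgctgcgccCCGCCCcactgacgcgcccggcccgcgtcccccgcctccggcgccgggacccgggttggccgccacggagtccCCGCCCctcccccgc
Timd2: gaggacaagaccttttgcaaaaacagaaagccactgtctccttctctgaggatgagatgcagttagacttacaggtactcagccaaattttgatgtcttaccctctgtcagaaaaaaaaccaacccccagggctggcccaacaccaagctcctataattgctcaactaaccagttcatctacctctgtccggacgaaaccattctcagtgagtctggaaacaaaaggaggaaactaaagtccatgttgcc

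The windows differed in architecture. Kap held a TATA box whose first base lies at -31 from the start and a GC box at -97. Slco1a1 held TATAAA only on the reverse strand, at -209 and -99. Odc1 held 4 GC boxes, at -238, -116, -88 and -15, with 35 CpG dinucleotides and 80.0% GC, beside medians of 6 CpG and 52.4% GC over 32851 such windows. Kap, Slco1a1, Gusb, Acsm3 and Timd2 had 1, 0, 3, 5 and 2 CpG. Timd2 has a further RefSeq start. Its window, chr11:46698831-46699080 on the minus strand, is not shown and also had 2 CpG. Over all windows, TATAAA was in 12.4% and GGGCGG in 32.7%, counting both strands. The palindromic androgen response element, AGAACA and TGTTCT set 3 bases apart, was in 0.00913% of all windows and its arm AGAACA, which the palindrome contains, in 16.1%; neither was in the window of any member. The HNF4 motif CAAAGTCCA (0.384% of windows) and the HNF1 motif, GTTAAT and ATTAAC set 1 base apart (0.00913%), named for tubule transcription factors, had no match in the members either. A missing match says only that these letters are not in this window. The start also depends on the annotation. In GENCODE M21, used here for gene locations, Kap reaches to chr6:133853762 and Odc1 begins at chr12:17544794, both inside the RefSeq windows. By those locations the TATA box of Kap and the GC box of Odc1 at -15 lie within the genes.

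The genes span a wide range of levels per transcript length. Kap was the most abundant RNA of all genes by FPKM in 4 of 4 CTL libraries, with 29059 ± 2843 FPKM (mean ± SD, n = 4 here and below) and 2.32 ± 0.200% of all counts. Odc1 (108.5 ± 62.9 FPKM), Acsm3 (95.7 ± 30.1 FPKM) and Slco1a1 (76.7 ± 21.9 FPKM) followed in CTL with ranges that overlapped each other, and Gusb (21.6 ± 9.93 FPKM) and Timd2 (16.1 ± 1.57 FPKM) stood below them with ranges that also overlapped. In HUA, Kap had 10268 ± 4976 FPKM, Timd2 at 63.3 ± 38.8 FPKM and Odc1 at 57.4 ± 10.4 FPKM came after it with overlapping ranges, Slco1a1 (18.1 ± 9.18 FPKM) and Acsm3 (16.8 ± 15.9 FPKM) followed, and Gusb was lowest at 8.30 ± 1.70 FPKM. In XZSW the order of means was Kap (17760 ± 1098 FPKM), Odc1 (72.5 ± 14.2 FPKM), Acsm3, Slco1a1, Timd2 (15.6 ± 3.14 FPKM) and Gusb (7.51 ± 0.655 FPKM); Acsm3 at 33.9 ± 5.11 FPKM and Slco1a1 at 32.0 ± 11.2 FPKM overlapped.

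**Figure D1:**
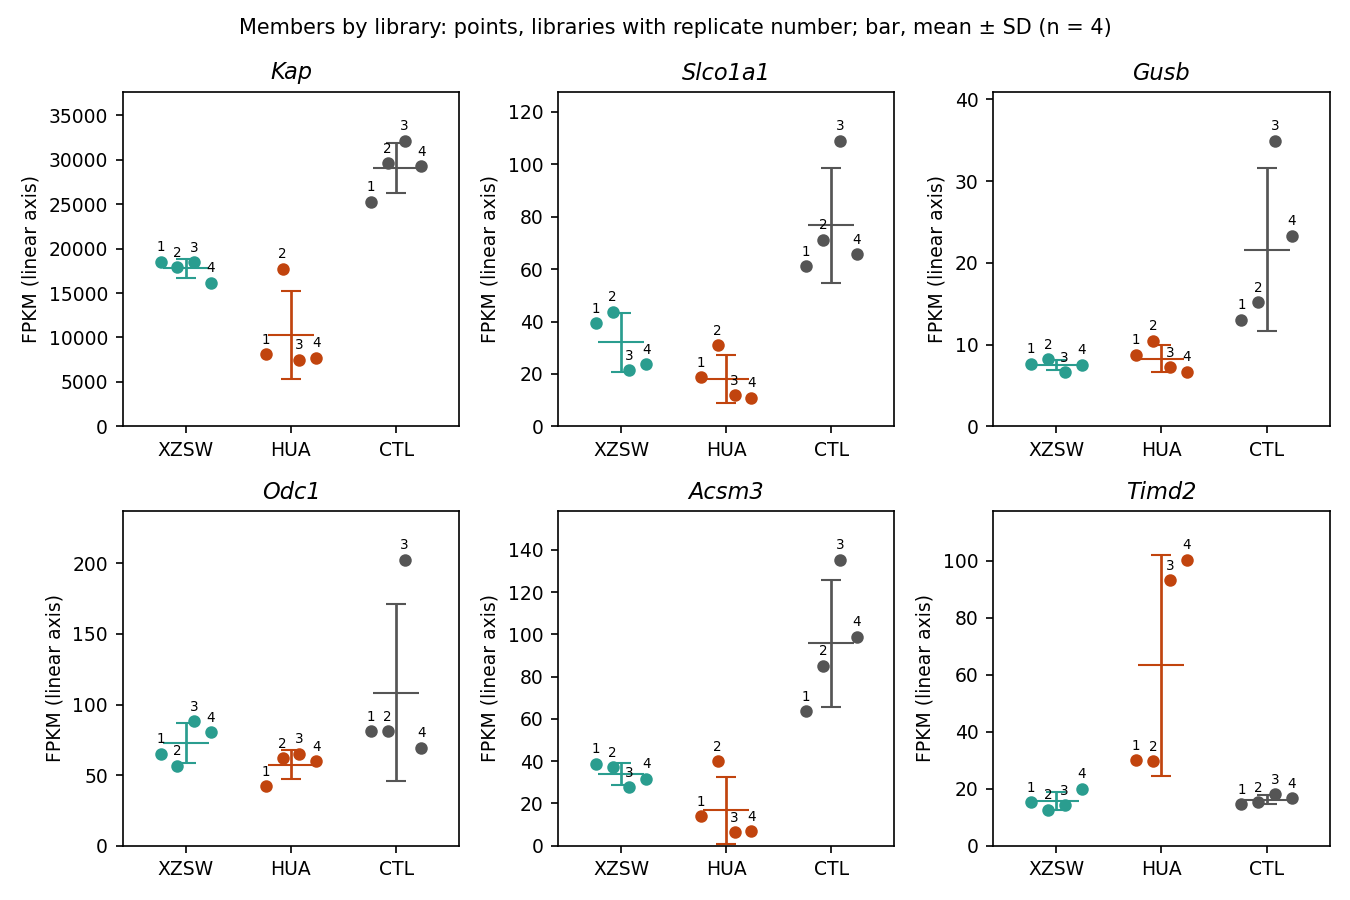
FPKM of the 6 genes in each library, on linear axes that start at 0, for XZSW, HUA and CTL; points carry the replicate number and bars are mean ± SD (n = 4). Kap, Slco1a1, Gusb, Odc1 and Acsm3 lie lower in all 4 HUA libraries than in any CTL library, and Timd2 lies higher; HUA2 is the HUA library nearest to CTL for Kap, Slco1a1, Gusb and Acsm3.

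HUA against CTL sets the hyperuricemia model beside control kidney. Kap, Slco1a1, Gusb, Odc1 and Acsm3 fell in HUA by fitted log2 changes of 1.26 to 2.85, and Timd2 rose, 3.06-fold. For all 6 the HUA and CTL libraries did not overlap. Over all 19772 tested genes, 27.8% were called in this comparison at an adjusted p under 0.05 (12.8% lower, 14.9% higher), and 15.2% were lower and 15.1% higher without overlap in scaled CPM. The median log2 change was -1.78 over the 6 genes and 0.06 over all tested genes. Scaling by library totals moved the median of all genes by 0.33 log2 units in this comparison and the overall split from 2950 higher and 2538 lower to 5776 higher and 1320 lower; the 6 directions and calls stayed. In bulk kidney RNA, fewer cells of a type and less RNA per cell cannot be told apart.

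Kap encodes the kidney androgen-regulated protein, a small protein of proximal tubule cells. It had 18515, 17899, 18461 and 16167 FPKM in XZSW1 to XZSW4, 8121, 17723, 7521 and 7705 FPKM in HUA1 to HUA4, and 25263, 29598, 32144 and 29231 FPKM in CTL1 to CTL4. The XZSW libraries were close together, HUA1, HUA3 and HUA4 were at less than any of them, and HUA2 was near the XZSW level. Kap fell 3.60-fold in HUA against CTL (log2 change -1.85, SE 0.26, adjusted p = 0.000379). In place among all genes by FPKM it stood 3, 2, 2 and 4 in XZSW1 to XZSW4, 11, 2, 4 and 4 in HUA1 to HUA4, and 1 in each CTL library. Its share of counts was 1.35 ± 0.0880% in XZSW, 0.809 ± 0.394% in HUA and 2.32 ± 0.200% in CTL.

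Slco1a1 encodes an organic anion transporter of the apical tubule membrane that carries steroid conjugates among other substrates. Its levels were 39.4, 43.7, 21.4 and 23.6 FPKM in XZSW1 to XZSW4, 18.7, 30.9, 11.9 and 10.98 FPKM in HUA1 to HUA4, and 61.0, 71.2, 109 and 65.7 FPKM in CTL1 to CTL4. Every HUA and every XZSW library was below every CTL library, and XZSW and HUA overlapped. Slco1a1 fell 5.37-fold in HUA against CTL (log2 change -2.42, SE 0.37, adjusted p = 0.00055).

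Gusb encodes beta-glucuronidase, a lysosomal enzyme that removes glucuronic acid from glycosaminoglycans. It was at 7.67, 8.19, 6.62 and 7.55 FPKM in XZSW1 to XZSW4, 8.78, 10.5, 7.26 and 6.69 FPKM in HUA1 to HUA4, and 13.0, 15.2, 35.0 and 23.4 FPKM in CTL1 to CTL4. The XZSW and HUA libraries shared one narrow range below all CTL libraries, which were themselves spread widely. Gusb fell 3.28-fold in HUA against CTL (log2 change -1.72, SE 0.26, adjusted p = 0.000575).

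Odc1 encodes ornithine decarboxylase, the rate-limiting enzyme of polyamine synthesis. It was at 65.1, 56.7, 88.1 and 80.2 FPKM in XZSW1 to XZSW4, 42.1, 62.2, 65.3 and 59.9 FPKM in HUA1 to HUA4, and 80.9, 81.0, 202.5 and 69.5 FPKM in CTL1 to CTL4. CTL3 stood far above the other CTL libraries, and the gap between the highest HUA and the lowest CTL library was small. Odc1 fell 2.40-fold in HUA against CTL (log2 change -1.26, SE 0.29, adjusted p = 0.00638). Without CTL3 the log2 change was -0.80 (adjusted p = 0.00985), and the call was lost with limma on log2(FPKM + 1), at -0.78 with an adjusted p of 0.0535.

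Acsm3 encodes a mitochondrial acyl-CoA synthetase that activates medium-chain fatty acids. Its levels were 38.9, 37.2, 27.8 and 31.7 FPKM in XZSW1 to XZSW4, 13.9, 40.1, 6.26 and 6.77 FPKM in HUA1 to HUA4, and 63.6, 85.1, 135 and 98.9 FPKM in CTL1 to CTL4. HUA2 was above all XZSW libraries, and HUA3 and HUA4 were the lowest of the 12. Acsm3 fell 7.20-fold in HUA against CTL (log2 change -2.85, SE 0.52, adjusted p = 0.00157), with a log2 change of -3.72 without HUA2. The gene overlaps Eri2 on the other strand, and whether counting used strand is not given in the sources used here. Eri2 counts were 4.57 to 5.68% of the Acsm3 counts in XZSW, 4.37 to 19.1% in HUA and 0.997 to 2.27% in CTL, at 380 to 807 Eri2 counts per library.

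Timd2 encodes TIM-2, a cell surface receptor that takes up heavy-chain ferritin in the mouse. It was at 15.3, 12.7, 14.2 and 20.0 FPKM in XZSW1 to XZSW4, 30.0, 29.6, 93.2 and 100.3 FPKM in HUA1 to HUA4, and 14.6, 15.2, 18.1 and 16.7 FPKM in CTL1 to CTL4. XZSW and CTL occupied one range, all HUA libraries were above it, and HUA3 and HUA4 were well above HUA1 and HUA2. Timd2 rose 3.06-fold in HUA against CTL (log2 change 1.62, SE 0.35, adjusted p = 0.00448). With the kind of library as a further term the log2 change was 1.07 (SE 0.43) and the call was lost (adjusted p = 0.0892). In HUA1, the HUA library without the GC trend, Timd2 was 0.56 log2 units above the CTL mean. In HUA2 to HUA4 it was 1.66 above on average. The 5 falls kept their calls with the kind of library as a further term.

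**Figure D2:**
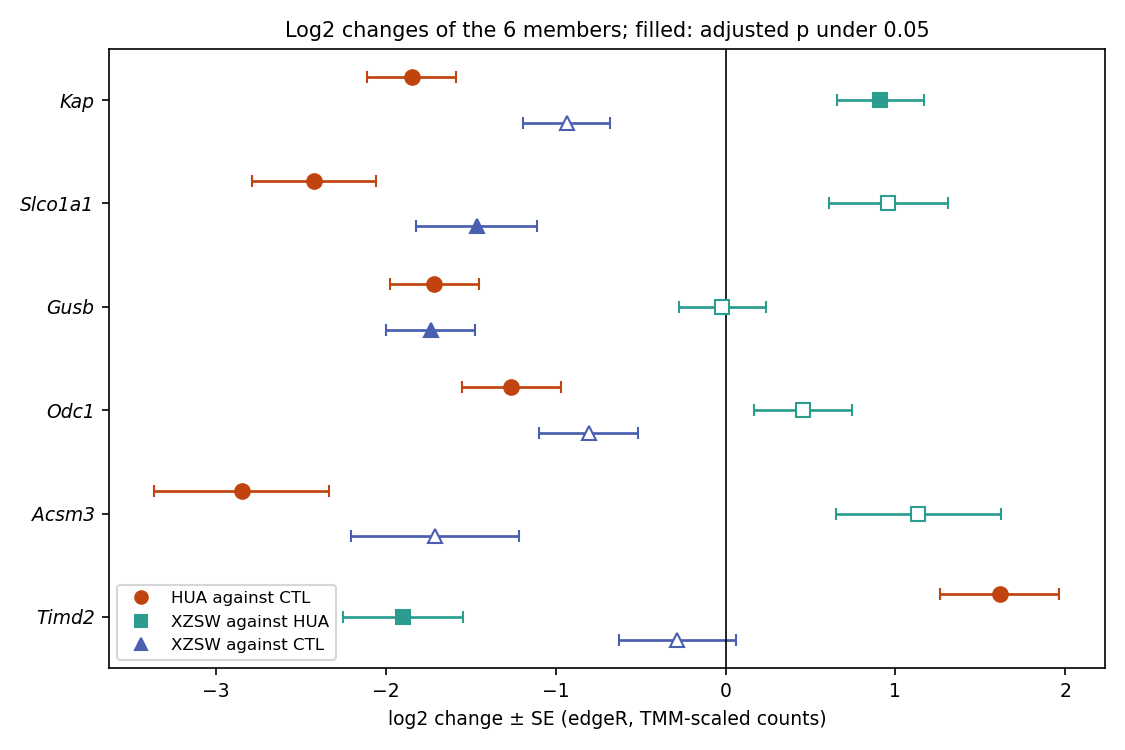
Fitted log2 changes ± SE (edgeR, TMM-scaled counts) of the 6 genes in the 3 comparisons named in the legend; filled symbols have an adjusted p under 0.05. The 6 HUA-against-CTL symbols are all filled, and in XZSW against HUA only Kap at 0.91 and Timd2 at -1.90 are.

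The comparison of XZSW with HUA asks what the decoction did within the model. Kap rose 1.88-fold (log2 change 0.91, SE 0.26, adjusted p = 0.0301) and Timd2 fell 3.73-fold (log2 change -1.90, SE 0.35, adjusted p = 0.00458). Over all tested genes 15.4% were called (7.09% higher, 8.34% lower), and 8.98% were higher and 9.08% lower without overlap in scaled CPM. In scaled CPM Timd2 was lower and Odc1 higher without overlap, Odc1 at 226 to 311 CPM in XZSW and 144 to 216 CPM in HUA, while in FPKM Odc1 overlapped; Kap overlapped through HUA2. HUA is in this comparison and in the one with CTL, so the values of each are given side by side and their directions are not independent. The median log2 change was 0.68 over the 6 genes and 0.01 over all tested genes.

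The remaining 4 genes did not pass in XZSW against HUA. Slco1a1 had a log2 change of 0.96 (SE 0.35, adjusted p = 0.0838), Acsm3 of 1.14 (SE 0.49, adjusted p = 0.136) and Odc1 of 0.45 (SE 0.29, adjusted p = 0.322). Gusb had the value nearest to 0, -0.02 (SE 0.26, adjusted p = 0.973). HUA2 decided several of these values: without it Acsm3 (log2 change 2.03, adjusted p = 0.00117) and Slco1a1 (1.33, adjusted p = 0.0125) passed, and 4 of 6 genes were called. Over all genes 3511 were called without HUA2, against 3051 with all libraries. Leaving out HUA1, HUA3, HUA4, XZSW1, XZSW2 or XZSW3 instead left 1 of 6 genes called, with 1711 to 3817 calls over all genes.

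The rise of Kap was close to the threshold. It was lost in 11 of 21 alternative analyses, with adjusted p up to 0.282, among them the fits without HUA1, HUA3, HUA4, XZSW1, XZSW2 or XZSW3, while the log2 change was 0.74 or higher in each. Among the 5 libraries with the GC trend, XZSW3 and XZSW4 were above HUA2 to HUA4 by 0.86 log2 units for Kap and below them by -1.87 for Timd2. Among the libraries without it, XZSW1 and XZSW2 differed from HUA1 by 1.32 for Kap and -0.95 for Timd2. The fall of Timd2 passed in all 21 alternatives.

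The comparison of XZSW with CTL asks how far the decoction group stood from the controls. Gusb fell 3.33-fold (log2 change -1.73, SE 0.26, adjusted p = 0.00742) and Slco1a1 fell 2.76-fold (log2 change -1.47, SE 0.35, adjusted p = 0.0354). Over all tested genes 4.99% were called (2.72% higher, 2.27% lower), and 10.3% were higher and 11.3% lower without overlap in scaled CPM. By p, Gusb was at place 40 of the 19772 genes in this comparison, and at place 582 in HUA against CTL. Its unadjusted edgeR p was similar in both, 1.52e-05 here and 1.69e-05 in HUA against CTL. The places differ because more of the other genes had small p in HUA against CTL. Kap (log2 change -0.94, SE 0.26, adjusted p = 0.0529) and Acsm3 (-1.71, SE 0.49, adjusted p = 0.0634) did not pass, although no XZSW library reached a CTL library for either. Odc1 had -0.81 (SE 0.29, adjusted p = 0.119), or -0.34 without CTL3, and Timd2 -0.28 (SE 0.34, adjusted p = 0.67).

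Gusb was called lower in XZSW against CTL in all 21 alternatives, also with the kind of library as a further term (-1.64, adjusted p = 0.0119). Slco1a1 lost its call in 9 of 21, among them that term (-1.23, adjusted p = 0.0629). Leaving out CTL1, CTL2, CTL3, CTL4, XZSW1, XZSW3 or XZSW4 left 1 of 6 genes called, and leaving out HUA2, HUA3 or HUA4 left 4. Calls over all genes changed as well. They numbered 987 with all libraries and 133 to 520 with those CTL or XZSW libraries left out singly. With HUA2, HUA3 or HUA4 left out they numbered 946 to 1251. Slco1a1 had log2 changes of -1.71 to -1.27 when a library was left out.

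Other steroid hormone receptors and the enzymes of androgen metabolism were measured as well. Nr3c1, the glucocorticoid receptor, was at 6.28 ± 1.13 FPKM in HUA, against 7.47 ± 1.15 FPKM in CTL, and fell by 0.60 on the log2 scale (adjusted p = 0.0122). Esr1, an estrogen receptor, was at 0.452 ± 0.324 FPKM in HUA, against 0.818 ± 0.185 FPKM in CTL, and fell by 1.21 (adjusted p = 0.0412). The call of Esr1 was lost in 14 of 21 alternatives and that of Nr3c1 in 4, both with library totals, limma on log2(FPKM + 1) and the kind of library as a further term. Nr3c2, the mineralocorticoid receptor, had -0.27 and Pgr, the progesterone receptor, 0.51, and neither passed. In XZSW against HUA Nr3c1 had 0.39 (adjusted p = 0.117), and in XZSW against CTL Esr1 had -0.96 (adjusted p = 0.176).

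Of 11 enzymes of androgen activation and breakdown 9 were tested, and in HUA against CTL 1 rose and 5 fell, with a median log2 change of -1.13. Srd5a1, the reductase that makes dihydrotestosterone from testosterone, rose to 17.1 ± 12.1 FPKM in HUA, against 3.01 ± 0.951 FPKM in CTL (log2 change 2.14, adjusted p = 0.00423), and was at 3.99 ± 0.870 FPKM in XZSW. Its HUA libraries had 5.64, 7.94, 30.3 and 24.5 FPKM, with HUA3 and HUA4 highest, as for Timd2, and its call was lost with the kind of library as a further term. Hsd17b11, a hydroxysteroid dehydrogenase, fell to 39.6 ± 18.9 FPKM in HUA, against 128.9 ± 38.5 FPKM in CTL (log2 change -2.05, adjusted p = 0.000386). Akr1c14 and Akr1c21, keto-reductases that act on steroids, fell by 2.56 and 1.60 on the log2 scale. Against HUA, XZSW had 2 of the 9 higher and 2 lower, Srd5a1 with -1.97 (adjusted p = 0.0125) and Hsd17b11 with 1.07 (adjusted p = 0.0238). The rises numbered 0 without HUA3, XZSW2 or XZSW4 and 0 or 1 in 14 of 21 alternatives; the call of Hsd17b11 was lost in 5 and that of Akr1c21 (1.35) in 13. In XZSW against CTL 0 rose and 1 fell, with 0 to 1 and 0 to 4 over the alternatives. With library totals the HUA-against-CTL counts were 3 higher and 3 lower, and with the kind of library as a further term 0 and 2; the falls numbered 3 without CTL3 or HUA4.

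A list of 15 other genes known for higher expression in male or androgen-treated mouse kidney showed the same direction as 5 of the 6. The list was chosen with earlier results of these data known, so it gives no independent support. In HUA against CTL 15 of 15 fell, where 12.8% of all tested genes were called lower. The median log2 change of the 15 was -1.71 beside 0.06 over all genes. Slco1a6, an organic anion transporter, was at 38.6 ± 6.32 FPKM in XZSW, 20.7 ± 6.27 FPKM in HUA and 53.2 ± 6.31 FPKM in CTL, and fell in HUA against CTL with a log2 change of -1.71 (adjusted p = 0.000206). Nudt19, a nucleotide hydrolase, was at 193.5 ± 45.3 FPKM in XZSW, 162 ± 29.4 FPKM in HUA and 408.4 ± 102 FPKM in CTL, with a log2 change of -1.69. Cyp4b1, a cytochrome P450, fell by 2.02, and Cyp4a12a, a fatty acid hydroxylase whose near copy Cyp4a12b could share its reads, fell by 1.70.

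In XZSW against HUA 10 of these 15 rose and 0 fell, where 7.09% of all tested genes were called higher and 8.34% lower. The median of the 15 was 1.03 beside 0.01 over all genes. Hsd3b2, an enzyme of steroid synthesis, rose with a log2 change of 2.39 (adjusted p = 0.00609) and Cyp4b1 with 1.33 (adjusted p = 0.00731). The count of rises was 4 without XZSW2, 5 without HUA3 or XZSW1 and 6 without XZSW4 or with library totals. In XZSW against CTL 0 rose and 1 fell, Nudt19 with -1.30 (adjusted p = 0.0146), with a median of -0.69 over the 15. There 10 of 15 had an unadjusted p under 0.05, DESeq2 called 6 lower and the fit of the 8 libraries compared 8; the count was 0 without CTL2, 2 without HUA1, HUA3 or XZSW2, 3 without HUA4 and 4 without HUA2. Of 7 genes known for higher expression in female mouse kidney, 1 rose and 2 fell in HUA against CTL: Abcc3, an export pump, rose by 1.90, and Cyp2a4, which shares sequence with Cyp2a5, and Slc22a19, an organic anion transporter, fell by 2.76 and 2.25. Cyp4a14, a fatty acid hydroxylase, had -1.60 (adjusted p = 0.164), or -0.58 without CTL4 and -2.37 without HUA1. Of the 7, 2 rose and 1 fell in XZSW against HUA, and in XZSW against CTL 0 passed with edgeR, with 4 at an unadjusted p under 0.05, 2 called by DESeq2 and 1 by limma.

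**Figure D3:**
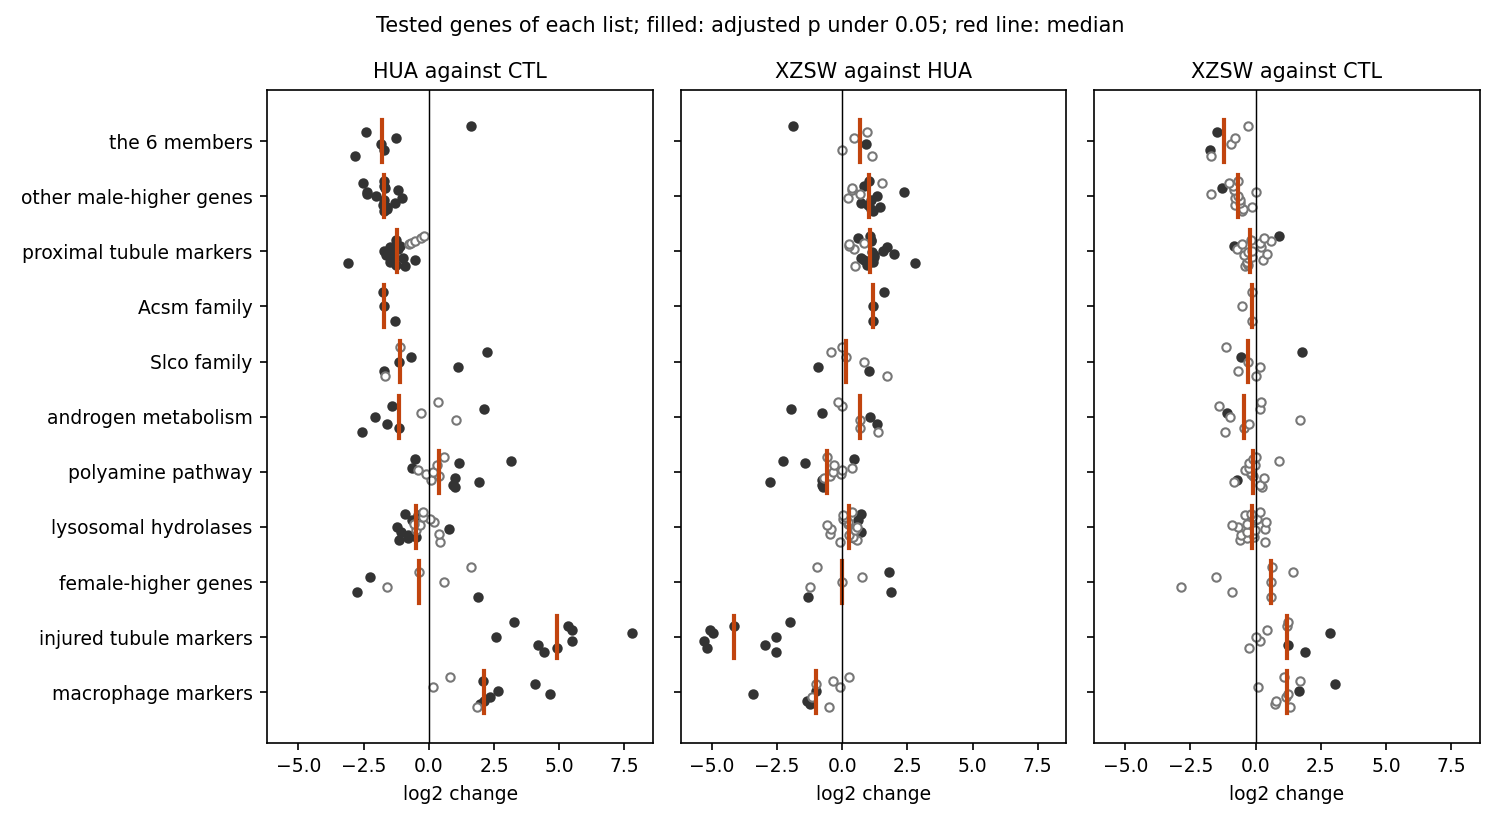
Log2 changes of the tested genes of 11 gene lists, with a panel for each of the 3 comparisons; each point is a gene, filled points have an adjusted p under 0.05 and the coloured bar is the list's median. Other male-higher genes lie at a median of -1.71 in HUA against CTL, 1.03 in XZSW against HUA and -0.69 in XZSW against CTL, and proximal tubule markers at -1.21, 1.09 and -0.22.

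Around Odc1, the polyamine pathway moved in more than one direction. In HUA against CTL, of 15 other pathway genes, 6 rose and 2 fell, with a median of 0.38. Smox, which oxidises spermine, was at 2.03 ± 0.472 FPKM in XZSW, 10.6 ± 4.73 FPKM in HUA and 0.934 ± 0.121 FPKM in CTL, and rose in HUA against CTL with a log2 change of 3.14 (adjusted p = 2.55e-05). Arg2, the mitochondrial arginase that makes ornithine, the substrate of Odc1, was at 11.4 ± 4.82 FPKM in XZSW, 82.7 ± 32.7 FPKM in HUA and 17.0 ± 5.43 FPKM in CTL, a log2 change of 1.93 in HUA against CTL. Sat1, which acetylates spermidine and spermine for breakdown, rose by 1.16, and Amd1, which supplies the aminopropyl group and has the near copy Amd2, by 1.00. In XZSW, 1 rose and 6 fell against HUA, among them Arg2 with -2.76 (adjusted p = 0.00107), Smox with -2.25 and Sat1 with -1.43. In XZSW against CTL 0 rose and 1 fell. The rise in XZSW against HUA and the fall in XZSW against CTL numbered 0 to 2 over the alternatives. With library totals 9 rose and 0 fell in HUA against CTL.

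Around Slco1a1, 7 of 11 other Slco transporter genes were tested, and 2 rose and 3 fell in HUA against CTL. Slco1a6, 138.8 kb from Slco1a1 on chromosome 6, fell as given above, while Slco1a4, 51.1 kb away on the other side, was at most at a mean of 0.119 FPKM in any group. Slco4a1 rose by 2.22 and Slco2a1, the prostaglandin transporter, by 1.12 (0.69 without HUA3), and Slco3a1 fell by 0.70. XZSW against HUA had 1 rise, Slco1a6 with 1.03 (adjusted p = 0.00828), and 1 fall, Slco2a1 with -0.93 (adjusted p = 0.0488), a call lost in 15 of 21 alternatives, with -0.48 (adjusted p = 0.146) without HUA3. In XZSW against CTL Slco4a1 rose by 1.77, a call lost in 4 of 21 alternatives, and Slco3a1 fell by 0.54 (adjusted p = 0.0481), a call lost in 14 of 21, library totals, limma and the kind of library among them. Kap lies on the same chromosome, 8.05 Mb from Slco1a1 (chr6:133849851-133853762 for Kap and chr6:141907282-141946962 for Slco1a1, both on the minus strand of GRCm38).

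Acsm3 (chr7:119760923-119787513, plus strand) has its relatives Acsm1, Acsm2 and Acsm5 98.4, 160.2 and 215.4 kb away, and all 3 fell in HUA against CTL. Acsm1 was at 226.5 ± 13.1 FPKM in XZSW, 108.7 ± 70.1 FPKM in HUA and 211 ± 23.5 FPKM in CTL, with a log2 change of -1.30 (adjusted p = 0.0108). Acsm2 was at 597.6 ± 114 FPKM in XZSW, 284.6 ± 161 FPKM in HUA and 733.6 ± 94.1 FPKM in CTL (-1.71, adjusted p = 0.00287), and Acsm5 fell by 1.75 (adjusted p = 0.00852). All 3 rose in XZSW against HUA, by 1.18, 1.20 and 1.60 with adjusted p of 0.0303, 0.0311 and 0.0244, and in XZSW against CTL 0 of 3 passed with edgeR, DESeq2 or limma or at an unadjusted p under 0.05, at -0.13, -0.51 and -0.15. Acsm3 had -1.71 in that last comparison; the difference between the members of the family was not tested. Leaving out HUA3 removed the 3 calls in XZSW against HUA, and with the kind of library as a further term 1 of 3 remained in HUA against CTL.

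Timd2 (chr11:46668960-46707061, minus strand) lies 28.0 kb from Havcr1, which encodes the related tubular injury marker KIM-1. Havcr1 was at 12.2, 4.15, 14.5 and 20.8 FPKM in XZSW1 to XZSW4, 213.9, 102.2, 934 and 755.6 FPKM in HUA1 to HUA4, and 13.6, 14.0, 10.6 and 13.4 FPKM in CTL1 to CTL4. HUA3 and HUA4 were highest for Havcr1 as for Timd2, and XZSW was around CTL. Havcr1 rose in HUA against CTL with a log2 change of 4.91 (adjusted p = 0.000271) and fell in XZSW against HUA with -5.17 (adjusted p = 0.000695). In HUA against CTL Havcr2, the immune checkpoint TIM-3, had a log2 change of 1.07 at a mean of 0.394 FPKM in HUA, against 0.144 FPKM in CTL, and did not pass. The ferritin genes Fth1 and Ftl1 had 0.01 and 0.06, and Tfrc, the transferrin receptor, had -0.54; none passed.

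Gusb was set beside 19 other lysosomal glycosidases and sulfatases. In HUA against CTL 1 rose and 9 fell, with a median of -0.47, and Gusb itself had -1.72. Glb1, a beta-galactosidase, fell by 1.05, Arsb, a sulfatase, by 1.16 and Fuca1, a fucosidase, by 0.80. In XZSW, 4 rose and 0 fell against HUA, among them Glb1 with 0.74 (adjusted p = 0.00609) and Neu1, a sialidase, with 0.72 (adjusted p = 0.0159), where Gusb had -0.02. In XZSW against CTL 0 of 19 passed with edgeR, where Gusb had -1.73; 8 had an unadjusted p under 0.05, DESeq2 called 4 and limma on log2(FPKM + 1) called 1, and the difference from Gusb was not tested. The rises in XZSW against HUA numbered 9 without HUA1 and 2 without HUA3 or XZSW2. With library totals 5 rose and 6 fell in HUA against CTL.

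Over the 12 libraries, likeness of pattern was measured as the root mean square difference of log2 CPM after centring each gene on its own mean, among 9116 genes. Kap and Slco1a1 (0.418) and Slco1a1 and Acsm3 (0.461) were the closest pairs of members, and Timd2 was 1.24 to 2.23 from the others. The 3 genes nearest to Kap were Acat1 (0.146), an acetyl-CoA acetyltransferase, C1qtnf12 (0.203) and Cryzl2 (0.205). Those nearest to Slco1a1 were Hsd17b11 (0.357), Lipo3 (0.357) and Ugt2b38 (0.362), a glucuronosyltransferase. Nearest to Gusb were Dnaja1 (0.336), Cd36 (0.352) and Lipo3 (0.355), and nearest to Odc1 were Dleu7 (0.310), Mlec (0.333) and Ociad2 (0.336). Acsm3 had Pzp (0.427), C1qtnf3 (0.435) and Ces2c (0.464), the largest distances of the 6 lists. These distances are not scaled to how much a gene varies. Over the libraries the SD of log2 CPM was largest for Acsm3 (1.55) and smallest for Odc1 (0.635). Timd2 had Cstb (0.199), which encodes the protease inhibitor cystatin B, Vat1 (0.214) and Cpe (0.243), which were at 253.5, 66.6 and 71.6 FPKM on average in HUA, against 61.5, 13.6 and 20.9 FPKM in CTL.

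**Figure D4:**
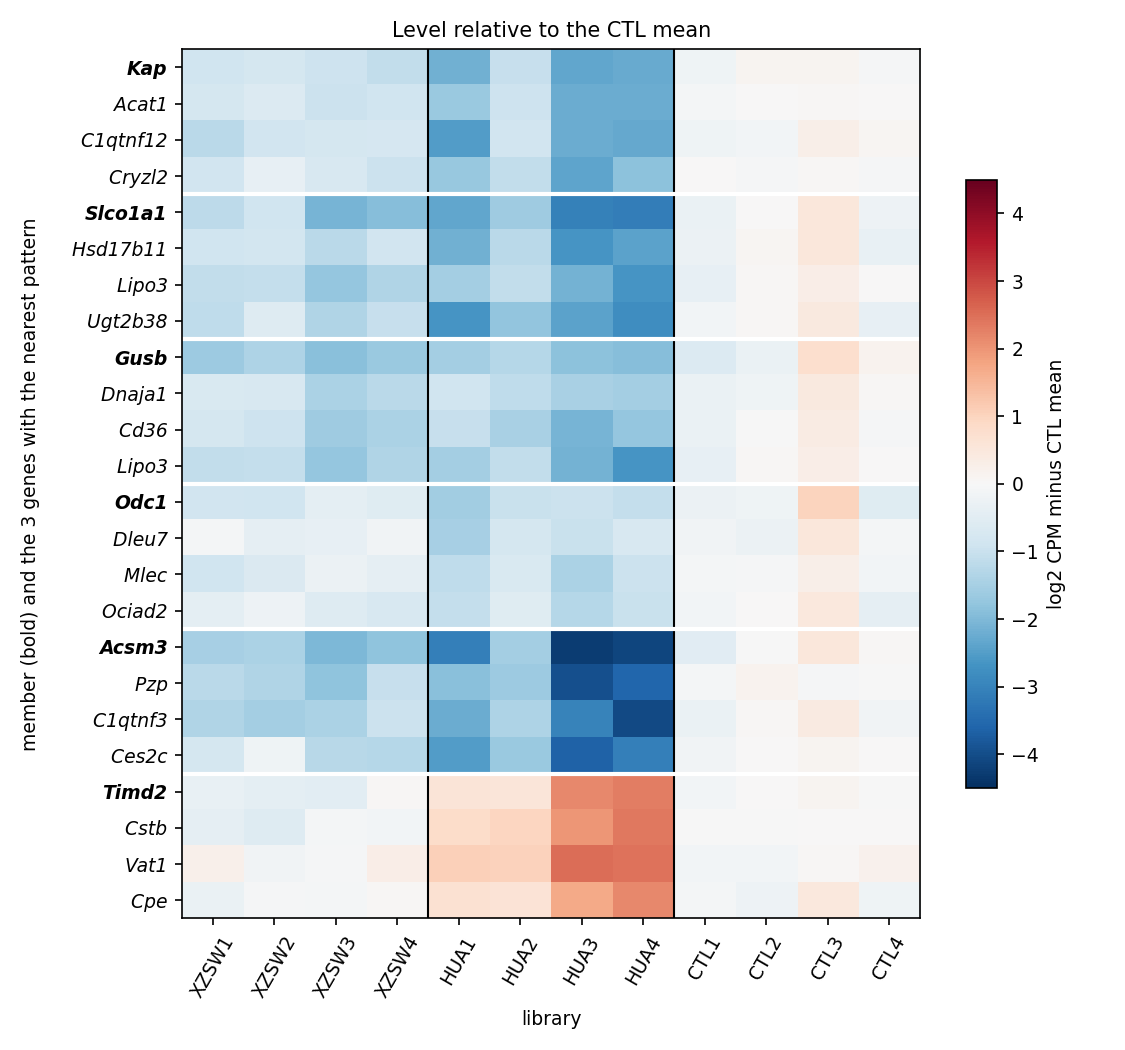
Log2 CPM minus the CTL mean in each of the 12 libraries (XZSW, HUA, then CTL) for the 6 genes (bold) and the 3 genes nearest in pattern to each; blue is below and red above the CTL mean. HUA3 and HUA4 are lowest for Slco1a1 and Acsm3, and Timd2 and the genes near it are above the CTL mean in all 4 HUA libraries.

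Markers of cell types were set beside these genes. The 6 genes had median log2 changes of -1.78 in HUA against CTL, 0.68 in XZSW against HUA and -1.20 in XZSW against CTL. In HUA against CTL 15 of 20 proximal tubule markers fell and 0 rose (median log2 change -1.21), and their summed level was 4376 to 4892 FPKM in XZSW, 1268 to 3536 FPKM in HUA and 4210 to 4612 FPKM in CTL. In XZSW against HUA 15 of 20 rose and 0 fell (median 1.09; 9 rose without HUA3), and in XZSW against CTL 1 rose and 1 fell (median -0.22; 0 to 3 and 0 to 2 over the alternatives). Pdzk1, a scaffold of apical transporters, had -1.43 in HUA against CTL and 1.15 in XZSW against HUA, and Miox, the kidney enzyme that breaks down inositol, -1.55 and 1.98. The part of the proximal tubule markers in the changes of the 6 genes was not tested.

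All 9 markers of injured tubule cells rose in HUA against CTL, with a median log2 change of 4.91, and all 9 fell in XZSW against HUA, with -4.14. Their summed level was 656 to 1126 FPKM in XZSW, 4813 to 30405 FPKM in HUA and 331 to 429 FPKM in CTL. Among the HUA libraries HUA2 had the lowest sum, 4813 FPKM, and it also had the highest Kap, Slco1a1, Gusb and Acsm3. Of 10 macrophage markers 7 rose in HUA against CTL and 4 fell in XZSW against HUA (1 without HUA2, HUA3, XZSW2 or XZSW4 and 2 without XZSW1), with sums of 50.2 to 131 FPKM in XZSW, 200 to 295 FPKM in HUA and 26.2 to 52.8 FPKM in CTL, and no marker was at 0 in a whole group. The 10 markers of other nephron segments and vessels had 2 rises and 1 fall in HUA against CTL; the rises numbered 1 to 3 and the falls 0 to 2 when a library was left out, and Pdgfrb (1.25), a pericyte gene, and Kdr (-0.96), an endothelial one, each lost their call in 12 of 21 alternatives. Of the adrenal cortex markers Star and Cyp21a1 were tested, and with edgeR 0 of these 2 passed in any comparison; at an unadjusted p under 0.05 the counts were 0 in HUA against CTL, 1 in XZSW against HUA and 0 in XZSW against CTL, DESeq2 called 0 in each and limma 1, in HUA against CTL. The sex chromosome list of 5 genes held 1 call in HUA against CTL, a fall of Uty with -0.64 (adjusted p = 0.0492), a call lost in 18 of 21 alternatives with adjusted p up to 0.394; the count of falls was 2 without HUA1 and 0 without any other single library but CTL4. The part of these markers in the results was not tested.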

How the data were processed

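Kidney RNA of 12 mouse samples was measured by strand-specific RNA-seq after TRIzol extraction, per the labels' protocols. The submitters' processing notes name cutadapt 1.9, HISAT2 2.2.1 and GRCm38; a counting tool and an annotation release are not given in the sources used here. Per the file headers, the deposited table holds raw counts and FPKM, by gene and sample, as the authors computed them. Column letters C, N and M were matched to CTL, HUA and XZSW through the sample descriptions, and no other label checks the match of N and M. Library totals were 51.6 to 74.3 M counts.

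Levels are the deposited FPKM. Counts of 19772 genes kept by filterByExpr (730 of 33188 were 0 throughout) were TMM-scaled, with factors from 0.856 to 1.15, and entered the quasi-likelihood F-test of edgeR 4.0.16 with all 12 libraries (prior df 4.23), with Benjamini-Hochberg adjustment over all tested genes and a threshold of 0.05. SEs came from the F statistic, and scripts were tested on simulated data. "Rose" and "fell" are used only of genes past that threshold. Members and lists were chosen with earlier results of these data known, the lists from general knowledge. Named genes were tested steroid receptors, Acsm, TIM and ferritin genes, in each other list the 4 genes with the smallest p in HUA against CTL and up to 2 in XZSW against HUA, and the 3 nearest genes of each member with a mean FPKM of at least 2; Slco1a4, Amd2, Cyp4a12b and Eri2 are named as neighbours or near copies. Some genes that this rule picks are not reported here. Locations are from GENCODE M21 and windows from RefSeq, in which all 6 members matched. Replicate numbers were checked for pairing: deviations from group means correlated by -0.0457 to 0.174 between same-numbered samples. Among libraries of other groups, 9 of 12 libraries still correlated best with one of their own number. The labels do not say that a number marks a pair, and the numbers were not taken as pairs. Results with a replicate block, under which some member calls change, are given below. The 21 alternatives were limma 3.58.1 on log2(FPKM + 1) and log2(FPKM + 0.1), DESeq2 1.42.0, its size factors, library totals, no filter, 8 libraries, a replicate block, the kind of library and leaving out each library. R 4.3.3, Python 3.11.15, pandas 2.3.3, numpy 2.4.6 and matplotlib 3.10.9 were used.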

Additional observations from a re-analysis of the deposited data

Results flagged for a closer look

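Of 18 groups of 4 libraries (6 genes in 3 groups), 2 held a library that stood apart from the other 3, with a gap to its nearest neighbour above Dixon's 95% critical share of the group's range. Chance gives about 1 such group in 20. Kap in HUA2 was at 17723 FPKM, above the 7521 to 8121 FPKM of the other 3 HUA libraries, with a gap of 0.941 of the range. Odc1 in CTL3 was at 202.5 FPKM, above the 69.5 to 81.0 FPKM of the other 3 CTL libraries, with a gap of 0.914. The same 2 groups stood out in scaled CPM. CTL3 was the highest CTL library for 6 of the 6 genes, and HUA2 the highest HUA library for 4 of 6. The share over all genes was not computed, so these counts are not particular to the members. The 15 other male-higher genes also summed highest in CTL3 (7590 FPKM) and HUA2 (4083 FPKM) within their groups. So did the 20 proximal tubule markers, with 3536 FPKM in HUA2 and 4612 FPKM in CTL3, close to 4608 FPKM in CTL1.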

How the results depend on the processing

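In HUA against CTL the 6 directions held in all 21 alternatives, with 5 to 6 genes called and fitted log2 changes of -2.22 to -1.52 for Kap, -2.78 to -1.95 for Slco1a1 and -1.89 to -1.20 for Gusb. In XZSW against HUA 2 of 6 genes were called, or 1 with limma on log2(FPKM + 1), library totals, no filter or the 8 libraries compared, and 1 to 4 when a library was left out; of all genes 3051 were called, or 1439 with the 8 libraries compared and 1711 to 3817 when a library was left out. In XZSW against CTL 2 were called lower, or 4 with DESeq2 or the 8 libraries compared, 1 with no filter or the kind of library as a further term, and 1 to 4 when a library was left out. Genes called there numbered 987, or 1744 with limma on log2(FPKM + 0.1), 2417 with DESeq2, 529 with no filter, 2625 with the 8 libraries compared, 1750 with the kind of library and 133 to 1596 when a library was left out. The cause was not tested. With the replicate block 5466, 3076 and 813 genes were called and 6, 3 and 3 of the members, Slco1a1 passing in XZSW against HUA (1.00, adjusted p = 0.0406) and Kap in XZSW against CTL (-0.94, adjusted p = 0.0408); 9 of 12 libraries correlated best with one of their own number. Reversed values, all of uncalled genes, were in HUA against CTL Nr3c2 (0.00298 with limma on log2(FPKM + 1), 0.051 with library totals, -0.49 to 0.040 when a library was left out), Fth1 (-0.044 with the block, -0.31 to 0.18 when a library was left out), Ftl1 (-0.21 with the kind of library, -0.26 to 0.25 when a library was left out) and Ddx3y (0.015 with the kind of library), and in XZSW against HUA Gusb (-0.12 to 0.10 when a library was left out).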
